A study of Mus musculus with 3 samples.

Results

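A set of 896 cells from the mouse molar, chosen by a score over 8 genes that include Mia, Apod and Krt18, is described here against the other cells of the same sorted pools. The score was the mean of the natural log of 1 plus the UMIs of each gene per 10000 UMIs of the cell, over Mia, Apod, Krt18, Wfikkn2, Pcdh10, Nr0b1, Cox4i2 and Cpm. A UMI, or unique molecular identifier, counts 1 captured RNA molecule. Cells entered the ranking when they held at least 500 genes, at most 20% mitochondrial UMIs, no UMI of Ptprc or Epcam, and less than 1% of their UMIs from Ibsp. Of 27089 deposited cells 17924 were kept, and the top 5% of each library gave 413 members at postnatal day 15 (P15), 304 at P25 and 179 at 8 weeks. The measured values of the 8 genes therefore selected the members, and these 8 genes are given below as a description with no test.

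The series samples the tooth root at 3 ages to follow the cells that make cementum. The study gives these ages as the completion of acellular cementum, the start of cellular cementum and maturation. Cells that carry a Pthrp-mCherry knock-in reporter were pooled from the mandibular molars of mice on a C57BL/6 background, sorted for mCherry fluorescence and profiled with a droplet assay that reads the 3' end of transcripts. All groups share the reporter allele, none was treated, and each age is 1 library, so a difference between ages cannot be told apart from a difference between libraries or pools. The deposited matrices held 12926 cells and 188157997 UMIs at P15, 8971 cells and 169712592 UMIs at P25, and 5192 cells and 46234378 UMIs at 8 weeks. The libraries of P15 and P25 shared 26 cell barcodes, those of P15 and 8 weeks 16 and those of P25 and 8 weeks 13, and no shared barcode belonged to a member in both libraries of a pair. A reporter knocked into the Pthrp locus labels any cell that uses the locus or still holds the protein, so the sorted pool contains several cell states.

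Mia encodes a small secreted protein first described in melanoma and cartilage, and Apod encodes apolipoprotein D, a secreted lipocalin that carries small lipids. The periodontal ligament is the fibrous tissue between cementum and alveolar bone, and its fibroblasts are known by periostin, tenomodulin, scleraxis and other matrix or tendon genes. Around the growing root, the dental follicle supplies the mesenchymal cells from which ligament fibroblasts, cementoblasts and alveolar osteoblasts arise.

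The working name of these cells called them ligament precursors, and the ligament genes did not follow the name. Levels below are UMIs per 1000000 UMIs of the library's summed cells, written CPM (the gene Cpm, carboxypeptidase M, is a different thing). Tnmd, which encodes the tendon and ligament protein tenomodulin, stood at 14.2, 3.59 and 2.23 CPM in the members of P15, P25 and 8 weeks, and at 158.6, 152.4 and 53.4 CPM in the other kept cells. Postn, which encodes periostin, stood at 324 CPM, 643 CPM and 636 CPM in members and at 1174, 2673 and 2040 CPM in other kept cells. Members were thus below the other cells in each library for both genes. Of the 15 ligament and tendon genes listed for this check, 0 were higher and 9 were lower in members by the test described further on, beside 3.72% higher and 8.86% lower over all genes tested. The cells are therefore called here by their leading score genes, as Mia-Apod cells or members, and are given no other cell type name.

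Members were shallower than the other kept cells. In the P15, P25 and 8-week libraries they had median UMI counts of 13856, 11318.5 and 7015, against 15498, 16854 and 9525.5 in the other kept cells. Median genes per cell were 3947, 3299.5 and 2539 in members and 3925, 3924 and 2971.5 in others, and median mitochondrial shares lay between 3.02% and 4.20% in both classes of the 3 libraries. The gap in median UMIs was present in each library and widest at P25, and the part of depth in the results was not tested beyond the thinned counts given in the closing section. Among members, 7, 3 and 1 cells fell in the 6% of cells with the highest doublet scores of their library.

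The score had no gap at the boundary. The lowest member scores were 0.740, 1.07 and 1.35 at P15, P25 and 8 weeks, and the medians of members were 0.940, 1.32 and 1.52. The medians of the other kept cells were 0.0865, 0.104 and 0.218, and 31.4%, 26.7% and 21.8% of those cells scored 0. The 20 members nearest the boundary scored 0.740 to 0.753, 1.07 to 1.10 and 1.35 to 1.39, and the 20 nearest cells outside it scored 0.727 to 0.739, 1.03 to 1.06 and 1.31 to 1.34. Cells on both sides of the boundary held UMIs of a median of 5 score genes at P15 and 6 at P25 and 8 weeks. Within 0.1 of the boundary lay 114, 65 and 46 members and 159, 76 and 55 other cells, so the set is the upper end of a graded score and its edge is set by the 5% rule.

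Few members held all 8 score genes. The most common number of score genes with a UMI was 6, in 148 members (35.8%) at P15, 108 (35.5%) at P25 and 74 (41.3%) at 8 weeks. All 8 were found in 21, 50 and 13 members, or 5.08%, 16.4% and 7.26%. Spearman's rho between pairs of score genes across the 413, 304 and 179 members ran from -0.28 to 0.22. The rule takes cells above a mean of these same genes, which by itself pushes such values down, so nothing is read from them.

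Secreted products among the score genes were Apod, Mia and Wfikkn2. Apod stood at 907 CPM, 2234 CPM and 5597 CPM in members of P15, P25 and 8 weeks, and at 87.6, 126.9 and 589 CPM in the other kept cells. Mia stood at 119.3, 905 and 915 CPM in members and at 2.89, 23.3 and 38.8 CPM in others, which are ratios of 41.3, 38.9 and 23.6. Wfikkn2, which encodes a secreted antagonist of myostatin-class ligands, stood at 185, 296 and 281 CPM in members and at 16.5, 29.1 and 42.1 CPM in others. The exact 95% Poisson interval of Mia in members was 110.7 to 128.3 CPM at P15 and 876 to 936 CPM at P25. Such intervals cover counting error only, and since the boundary of the score differs between libraries they do not compare ages.

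Krt18 encodes a keratin of simple epithelia that assembles with keratin 8, and it stood at 188, 374 and 429 CPM in members and at 12.0, 16.8 and 52.3 CPM in others. Pcdh10, a protocadherin of the cell surface, stood at 203, 145 and 288 CPM in members and at 14.8, 19.1 and 46.2 CPM in others. Nr0b1, an orphan nuclear receptor that represses steroid synthesis genes, stood at 103, 155 and 135 CPM in members and at 2.07, 5.29 and 10.1 CPM in others. The metabolic and surface enzymes showed the same order of classes by construction of the score. Cox4i2, an isoform of a cytochrome oxidase subunit, stood at 498, 669 and 797 CPM against 90.6, 90.6 and 149 CPM. Cpm, a membrane carboxypeptidase, stood at 121, 157 and 288 CPM against 11.8, 15.9 and 28.8 CPM.

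**Figure D1:**
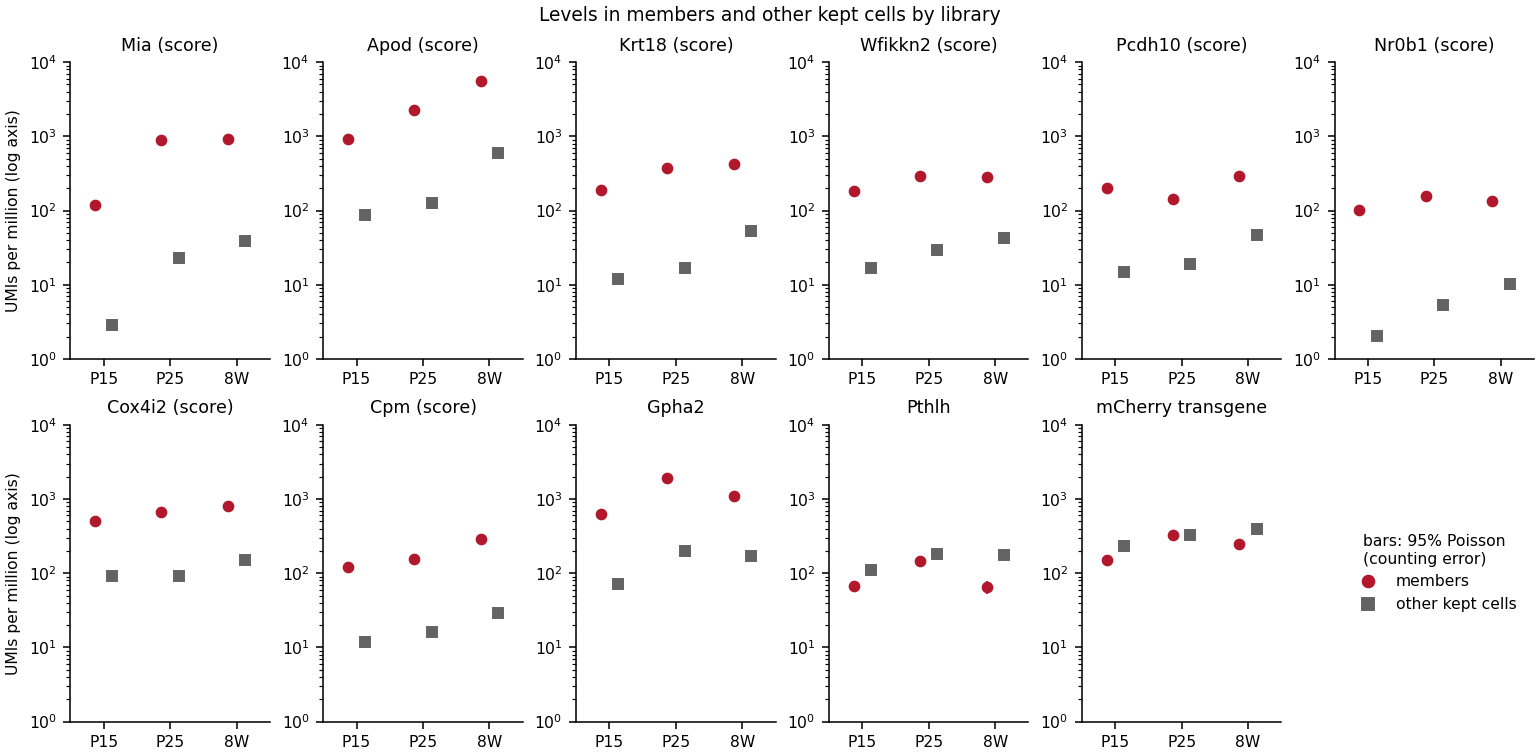
UMIs per 1000000 (log axis) of score genes and of genes outside the score in members (circles) and other kept cells (squares) of the P15, P25 and 8-week libraries, with 95% Poisson bars for counting error. Gpha2 stood between 631 and 1934 CPM in members and between 71.8 and 198 CPM in other kept cells.

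Gpha2, named in the working name of these cells but not part of the score, encodes the alpha subunit of thyrostimulin, a glycoprotein hormone. It stood at 631, 1934 and 1087 CPM in members of P15, P25 and 8 weeks and at 71.8, 198 and 170.2 CPM in the other kept cells. Members were higher in 3 of 3 libraries, by ratios of 8.79, 9.79 and 6.38, and the fitted log2 fold change was 2.96 ± 0.12 (SE; 3 libraries; adjusted p = 2.07e-06, edgeR quasi-likelihood test with the library as a block). Its partner Gphb5 was at 0 in members, and the receptor gene Tshr stood at 0.334, 0 and 0 CPM. A Gpha2 UMI was found in 53.0%, 83.2% and 60.9% of members and in 16.4%, 29.6% and 25.4% of other kept cells. In immune cells (at least 2 Ptprc UMIs), which should lack the gene, the share was 5.46% of 842, 9.502% of 221 and 0 of 19 cells, the last allowing up to 15.8% (3 cells of the total, the limit used here for a count of 0). Immune cells had median depths of 11202.5, 16455 and 11056 UMIs. With each cell thinned to 3000 UMIs the shares were 36.4%, 69.3% and 46.8% of members, 6.86%, 15.5% and 16.9% of others, and 1.90%, 2.71% and 0% of immune cells. The thinning left out 1, 1 and 8 members, 383, 164 and 339 other cells and 54, 0 and 3 immune cells that were shallower. In each library the members' share exceeded that of the immune cells with and without thinning.

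Mia and Gpha2 were counted together in the same cells as a description. A Mia UMI was found in 49.8%, 89.3% and 83.5% of members with Gpha2 and in 34.0%, 76.5% and 62.9% of members without it. Spearman's rho between both genes across members was 0.23, 0.14 and 0.21, and depth differs between the cells it is taken over. Among other kept cells, Mia was found in 5.69%, 18.3% and 18.2% of those with Gpha2 and in 2.01%, 4.13% and 5.04% of those without. Mia is a score gene that helped set which class a cell fell in, and the shares were not adjusted for depth. Nothing is therefore read from these shares or from the rho. When a random part of each cell's UMIs made the score and the remaining UMIs gave the levels, 86.2%, 87.8% and 76.5% of the members were chosen again, and Gpha2 in the remaining UMIs stood at 626, 1836 and 1248 CPM against 71.0, 185 and 163 CPM in other cells.

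The sequences before the start of 4 genes are shown because they carry the name of the set: the score genes Mia, Apod and Krt18, and Gpha2 from outside the score. Mia lies on the minus strand at chr7:27179742-27181157, Apod on the minus strand at chr16:31296192-31314808, Krt18 on the plus strand at chr15:102028180-102032027 and Gpha2 on the plus strand at chr19:6226380-6227768 (GRCm38, GENCODE M21), and all 4 are protein coding. The windows are the 250 bases before the RefSeq start on GRCm38.p6, read 5′ to 3′ on the gene's strand: chr7:27181150-27181399 for Mia, chr16:31314809-31315058 for Apod, chr15:102027966-102028215 for Krt18 and chr19:6226151-6226400 for Gpha2. Capitals mark the words ACAAAG and ACAATG on either strand, which are cores of SOX binding motifs and were searched because Sox9 and Sox5 are described below.
Mia: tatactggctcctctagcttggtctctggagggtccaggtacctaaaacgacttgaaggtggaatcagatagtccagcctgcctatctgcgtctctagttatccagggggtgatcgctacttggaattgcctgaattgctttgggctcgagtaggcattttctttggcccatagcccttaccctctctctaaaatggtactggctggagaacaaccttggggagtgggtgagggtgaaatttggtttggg
Apod: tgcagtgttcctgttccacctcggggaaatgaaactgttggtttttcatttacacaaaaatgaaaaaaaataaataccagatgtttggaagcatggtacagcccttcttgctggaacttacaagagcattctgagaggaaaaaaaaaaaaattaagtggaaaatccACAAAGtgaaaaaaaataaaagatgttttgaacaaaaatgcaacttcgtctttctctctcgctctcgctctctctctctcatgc
Krt18: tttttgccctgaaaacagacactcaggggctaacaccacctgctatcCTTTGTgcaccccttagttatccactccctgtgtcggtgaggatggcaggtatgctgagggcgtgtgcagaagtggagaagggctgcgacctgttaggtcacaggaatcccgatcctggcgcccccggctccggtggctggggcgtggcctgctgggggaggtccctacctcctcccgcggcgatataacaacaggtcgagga
Gpha2: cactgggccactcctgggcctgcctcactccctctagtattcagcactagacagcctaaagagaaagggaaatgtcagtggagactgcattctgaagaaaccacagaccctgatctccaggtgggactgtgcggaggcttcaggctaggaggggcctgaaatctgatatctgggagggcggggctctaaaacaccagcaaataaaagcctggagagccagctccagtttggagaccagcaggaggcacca
The Apod window held 1 word that begins 84 bases before the start, the Krt18 window held 1 that begins 203 bases before it, and the windows of Mia and Gpha2 held none. Of 23 genes looked up (the score genes except Cox4i2, the genes named as higher below except Neto1, and Sox9 and Col9a2), 20 had a window, and 5 of their 23 windows (21.74%) held a word. Among all 32851 mouse windows 25.24% held one, 16.46% ACAAAG and 10.69% ACAATG. A match is a description of letters and does not show a bound site.

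The comparison with the other kept cells asked which genes outside the score recurred in the members of all libraries. UMIs were summed over the members and over the other kept cells of each library, and edgeR's quasi-likelihood test with the library as a block was run on the 6 sums. Calls needed an adjusted p below 0.05 together with a fitted log2 difference of more than 1 either way. Of 13617 genes tested, 506 were higher in members (3.72%) and 1207 were lower (8.86%). The 3 libraries differ in age and pool, so the p-values measure how steadily a difference recurred over 3 libraries. Genes outside the score did not choose the cells, but the score genes were themselves picked with these libraries known and cells alike in 8 genes are alike in others, so the counts are read as a description and not as independent evidence.

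The gene furthest toward the members was Krt8, which encodes the keratin partner of Krt18 and neighbours it on the chromosome, at chr15:101996698-102004482 on the minus strand. It stood at 51.6, 59.3 and 100.1 CPM in members and at 2.996, 1.17 and 4.47 CPM in other kept cells (log2 fold change 4.64 ± 0.34 SE, adjusted p = 0.00104). A Krt8 UMI was found in 26.9%, 24.7% and 24.6% of members, 1.97%, 0.831% and 1.94% of other kept cells, and 0.238%, 0% and 0% of immune cells, of which 0 of 221 allows up to 1.36% and 0 of 19 up to 15.8%. With cells thinned to 3000 UMIs the shares were 11.7%, 12.2% and 17.0% of members and 0.563%, 0.303% and 1.17% of others. Of members with Krt18, 28.5%, 26.5% and 27.7% also held Krt8, against 23.3%, 18.2% and 13.2% of members without Krt18. The latter shares were 30 of 129, 12 of 66 and 5 of 38 cells. Krt18 is a score gene that helped choose the members, and the shares were not adjusted for depth, so nothing is read from this pair. The keratins of simple epithelia were otherwise sparse: Krt7, Krt19, Krt20 and Krt80 were too low to be tested, and Krt7 and Krt80 were at 0 in members.

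Collagen IX genes came next, and the cartilage list as a whole was split. Col9a1 and Col9a3 encode chains of collagen IX, which coats the surface of collagen II fibrils. Col9a1 stood at 131.5, 55.2 and 49.0 CPM in members and at 10.3, 7.25 and 2.73 CPM in others (log2 fold change 3.43 ± 0.25 SE, adjusted p = 0.000414). Col9a3 stood at 323, 101.3 and 83.1 CPM in members and at 42.3, 11.3 and 8.96 CPM in others (3.01 ± 0.11 SE, adjusted p = 2.07e-06). Matn4, which encodes the matrix adaptor matrilin 4, stood at 1283, 728 and 816 CPM in members and at 245, 133 and 131 CPM in others (2.41 ± 0.11 SE, adjusted p = 2.07e-06). Each of the 3 genes was higher in members in each library. Of 13 tested cartilage genes, 5 were higher (Col9a1, Col9a3, Matn4, Col9a2 and Chad) and 4 were lower (Col11a2, Col11a1, Matn2 and Acan). Acan, the main proteoglycan of cartilage, stood at 9.69, 3.34 and 2.97 CPM in members and at 15.03, 10.1 and 4.77 CPM in others. Col2a1, the main cartilage collagen, did not pass the test and stood at 46.9, 1.28 and 1.48 CPM in members against 13.8, 2.85 and 0.809 CPM. Collagen IX thus stood on the members' side and collagen XI and aggrecan on the other.

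SOX factors direct cartilage and nerve sheath programs. Sox9, the main activator of cartilage matrix genes, stood at 416, 351 and 596 CPM in members and at 103.9, 76.2 and 125.7 CPM in other kept cells (log2 fold change 2.07 ± 0.10 SE, adjusted p = 3.81e-06). Sox5, which acts beside Sox9, stood at 70.3, 44.4 and 56.4 CPM in members and at 12.9, 6.90 and 10.8 CPM in others (2.43 ± 0.12 SE, adjusted p = 3.81e-06). Of the 8 tested genes of the MIA family and SOX factors, 4 were higher (Sox5, Sox9, Sox11 and Sox4) and 0 lower. The MIA relatives did not pass: Mia3 stood at 95.2, 98.5 and 95.7 CPM in members against 95.6, 111.8 and 105.8 CPM, and Otor stayed at or below 1.51 CPM in both classes. Sox6, the usual partner of Sox5, did not pass and stood at 2.51, 1.54 and 2.23 CPM in members against 3.004, 0.938 and 0.690 CPM.

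Thyroid hormone handling held a pair of opposite calls. Dio3 encodes the deiodinase that inactivates thyroid hormone, and it stood at 256, 241 and 344 CPM in members and at 37.9, 39.8 and 74.9 CPM in others (log2 fold change 2.44 ± 0.12 SE, adjusted p = 2.79e-06). Dio2 encodes the deiodinase that activates the hormone, and it stood at 4.18, 4.62 and 2.23 CPM in members and at 63.1, 76.7 and 28.5 CPM in others (-4.05 ± 0.16 SE, adjusted p = 2.07e-06). Among the listed genes Gpha2 and Dio3 were higher, Dio2 was lower, and the receptor genes Thra and Thrb did not pass (log2 fold changes 0.44 and -0.65).

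The remaining genes furthest toward the members were surface and secreted proteins with an enzyme and a calcium sensor among them. Cntn6, a contactin that acts in neurite adhesion, had a log2 fold change of 2.79 and ranged from 49.0 to 194.8 CPM in members and from 11.2 to 17.4 CPM in others. S100a1, a calcium-binding protein, stood at 236, 332 and 972 CPM in members and at 54.3, 50.4 and 102.3 CPM in others (2.62 ± 0.24 SE, adjusted p = 0.00193). The calls of Cntn6 and S100a1 were lost without the P25 library, and that of Cntn6 also with each cell thinned to 3000 UMIs. Tgfbi, an adhesive matrix protein induced by TGF-β, stood at 392, 184 and 244 CPM against 86.7, 30.1 and 29.7 CPM (2.51 ± 0.18 SE). Nell1 encodes a secreted osteogenic protein (2.41), Neto1 a receptor auxiliary protein of synapses (2.37), Mansc4 a membrane protein (2.36), Nqo1 a quinone reductase (2.35) and Lrrtm4 a synaptic adhesion protein (2.32). The 15 genes named here were higher in members in 3 of 3 libraries, which the rule for naming them required.

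**Figure D2:**
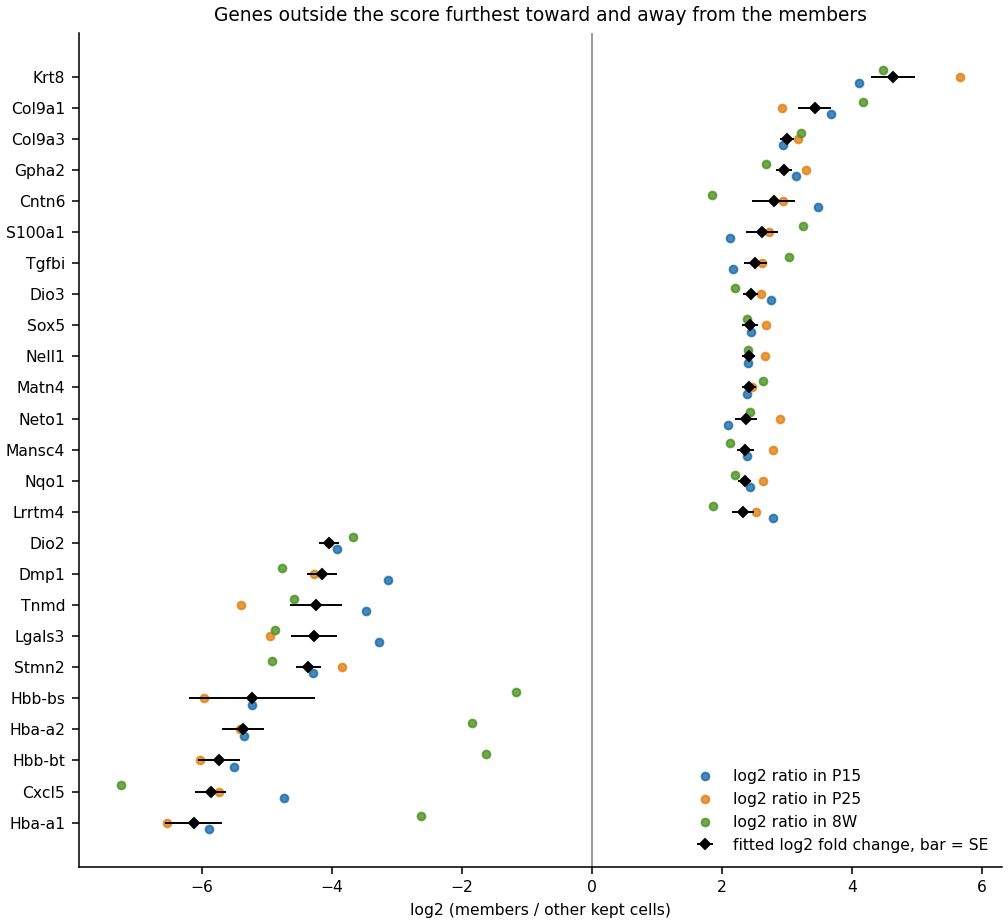
Log2 ratio of members to other kept cells for the 15 genes furthest toward and the 10 furthest away from the members, with the fitted log2 fold change and its SE (diamonds) and the ratio in each library (circles). Krt8 lay at 4.64 and Hba-a1 at -6.13.

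Away from the members stood globins, a chemokine, mineral matrix genes and tenomodulin. The 4 globin genes Hba-a1, Hbb-bt, Hba-a2 and Hbb-bs had log2 fold changes of -6.13, -5.74, -5.37 and -5.23, the call of Hbb-bs was lost in 8 settings besides the missing block, and reads of such near-identical copies may be split between them. These calls rested on few cells: 86, 20 and 1 other kept cells with at least 1% globin UMIs held 97.7%, 98.2% and 65.5% of the globin UMIs of that class, and 0 members were such cells. Without them, globin stood at 90.9, 47.6 and 20.4 CPM in other kept cells, beside 90.3, 38.9 and 19.3 CPM in members. Cxcl5, a neutrophil chemokine, stood at 0.501, 2.31 and 0.742 CPM in members and at 13.3, 123.6 and 113.1 CPM in others (-5.87 ± 0.24 SE, adjusted p = 2.07e-06), and its call was lost when the score and the levels came from separate UMIs (-3.45, adjusted p = 0.203). Stmn2, a microtubule regulator known from neurons, was lower by a log2 fold change of -4.37, and Lgals3, which encodes galectin 3, by -4.28, a call lost with a score over 5 genes. Dmp1, an acidic protein of mineralised matrix, stood at 1.34, 4.11 and 2.23 CPM in members and at 11.7, 79.7 and 60.7 CPM in others (-4.16 ± 0.23 SE, adjusted p = 7.43e-06).

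Ligament and tendon genes were lower or did not pass. Of the 15 tested, 9 were lower (Col14a1, Tnmd, Dpt, Tnn, Thbs4, Col12a1, Scx, Postn and Dcn) and the median log2 fold change was -1.94, beside -0.04 over all genes tested. Tnn encodes tenascin W, a matrix protein of tendon and bone surfaces, and stood at 33.9, 75.9 and 129.1 CPM in members and at 219.8, 962 and 1273 CPM in others (-3.31 ± 0.20 SE, adjusted p = 8.20e-05). Tnmd, given above, had a log2 fold change of -4.24 ± 0.40 (SE; adjusted p = 0.00388), and its call was lost without the 8-week library. Scx, the tendon transcription factor scleraxis, stood at 2.17, 2.31 and 2.97 CPM in members and at 6.70, 13.4 and 13.6 CPM in others. Aspn, which encodes asporin, and Mkx, the tendon factor mohawk, did not pass at log2 fold changes of 0.54 and 0.36. The most abundant gene of the list, Col3a1, was not called (-0.78), and the summed list stood at 7707, 9479 and 11643 CPM in members and at 14899, 21203 and 20996 CPM in others.

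The study's markers of 2 of its 3 cementoblast precursor clusters, with Wif1 added, were counted next, and since they were drawn from these same libraries their direction is not independent evidence. Of 16 tested, 6 were higher (Vcan, Pcp4, Cxcl12, Mfap4, Hmgn3 and Id1) and 0 lower, with a median log2 fold change of 0.79. The key markers of the third cluster, which were looked up after these values were seen, went the other way: Thbs4 (-2.82), Col1a2 (-2.14), Col1a1 (-1.98), Rora (-1.31) and Alpl (-1.12) were lower and Col16a1 was not called (-0.78). The study's precursor markers were thus split by cluster. Vcan encodes versican, a large proteoglycan of loose matrix, and stood at 1980 CPM, 647 CPM and 904 CPM in members and at 448, 127.5 and 178 CPM in others (2.20 ± 0.11 SE, adjusted p = 2.16e-06). Pcp4, a calmodulin-binding peptide, stood at 2376, 1585 and 1757 CPM in members and at 615, 317 and 504 CPM in others (1.95). Wif1, a secreted Wnt inhibitor and the study's marker of a root precursor state, was not called, and stood at 1661, 4062 and 3773 CPM in members and at 2834, 4355 and 5869 CPM in others (-0.58 ± 0.12 SE). Genes that the study used for periapical cells went the other way: 0 of 15 were higher and 10 were lower, led by Hand2 (-4.10) and Alx1 (-3.88), with a median of -2.18. That list too was drawn from these libraries.

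Most mineral matrix and osteogenic genes were lower in members. Leaving out Ibsp, whose level the filter on cells used, 0 of 12 tested were higher and 10 were lower, with a median of -2.67. The filter on Ibsp had taken out cells that seldom scored like members (1 of 1048, 2 of 1215 and 0 of 884 reached the score). Bglap, which encodes osteocalcin, stood at 60.8, 257 and 775 CPM in members and at 753, 3099 and 4754 CPM in others (-3.36 ± 0.27 SE, adjusted p = 0.00208). Phex (-4.24), Dmp1 (-4.16), Spp1 (-3.85) and Smpd3 (-3.66) were the furthest. The factors that open the osteoblast program did not pass: Runx2 stood at 155, 193 and 204 CPM in members against 249, 201 and 262 CPM, and Sp7 at 83.0, 105.7 and 74.2 CPM against 82.1, 107.9 and 99.9 CPM. The reporter used for the sort was present in members. The mCherry transcript stood at 150, 331 and 244 CPM in members and at 236, 324 and 391 CPM in others (-0.51 ± 0.14 SE, adjusted p = 0.0318, short of the fold required). Pthlh, which encodes PTHrP, stood at 66.8, 147 and 64.5 CPM against 111, 181 and 174 CPM (-0.85 ± 0.19 SE, adjusted p = 0.0213), and of 4 tested genes of the PTHrP axis 0 were called in either direction.

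**Figure D3:**
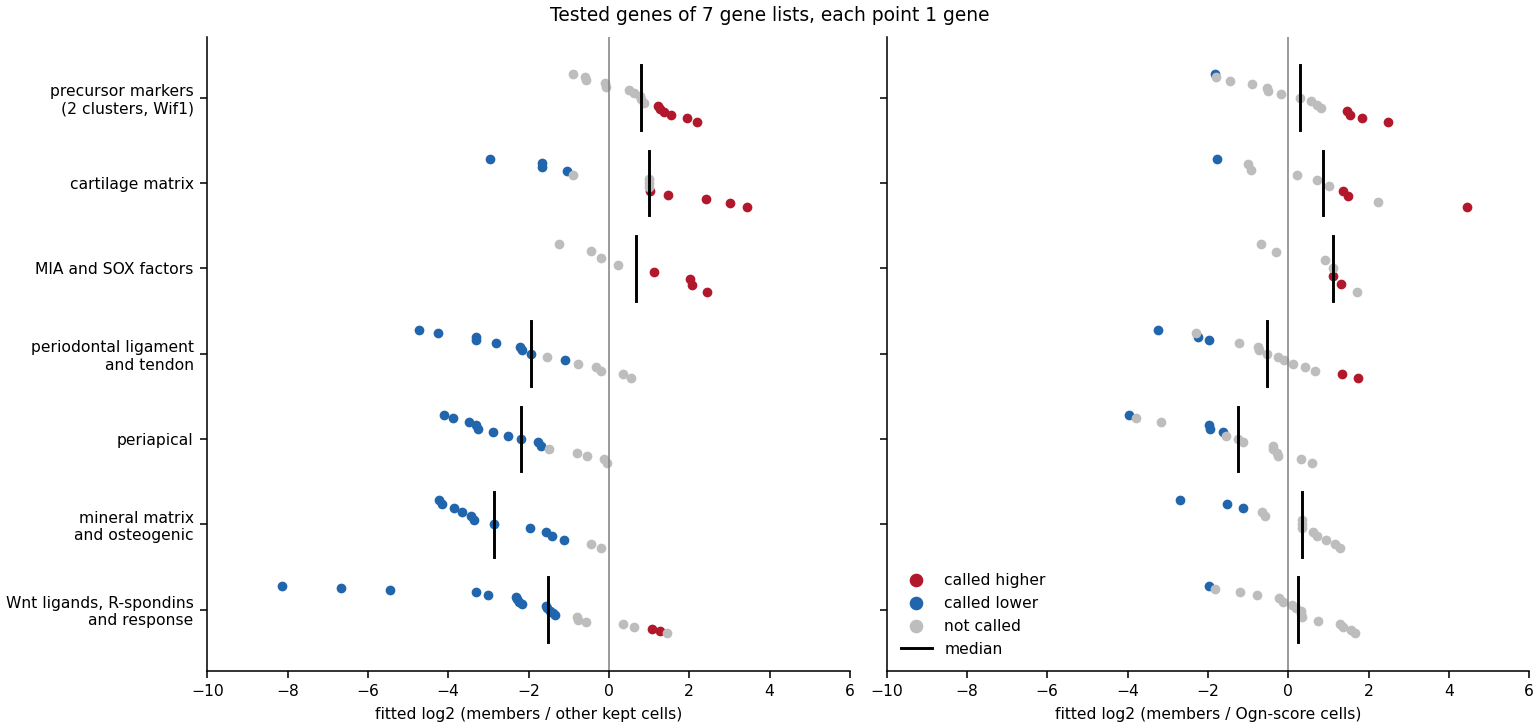
Fitted log2 fold changes of the tested genes of 7 gene lists in members against other kept cells and against Ogn-score cells, each point 1 gene and the line the median. Against other kept cells the ligament and mineral lists had medians of -1.94 and -2.86 (the latter with Ibsp, which the filter on cells used), and the markers of 2 of the study's 3 cementoblast precursor clusters, with Wif1, 0.79.

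Signals of the BMP, Wnt and activin families were mixed. Bmp2, a ligand of bone and cartilage induction, stood at 297, 343 and 353 CPM in members and at 72.2, 101.9 and 136.6 CPM in others (log2 fold change 1.65 ± 0.13 SE, adjusted p = 3.70e-05). Of 17 BMP genes, Bmp2, Id2 and Sostdc1 were higher and Bmp3, Bmp4 and Chrdl1 were lower. Bmp3, an inhibitory BMP, stood at 11.2, 10.3 and 14.1 CPM in members and at 103.3, 159.7 and 198 CPM in others (-3.70). Of 22 Wnt ligands, R-spondins and response genes, 2 were higher (Rspo2 and Tcf7l1) and 14 were lower, among them Rspo3 (-6.67), Wnt10b (-5.46) and Lgr5 (-3.30), and Wnt16 was at 0 in members. Tcf7l1, a repressor of Wnt targets, stood at 102.7, 79.0 and 78.6 CPM in members and at 42.9, 31.6 and 44.6 CPM in others (1.07). Of 12 Wnt antagonists, Frzb was higher (1.64) and 6 were lower, led by Dkk2 (-4.45), Notum (-4.22) and Sfrp4 (-3.75). Among 12 activin and GDF genes, 0 were higher and 3 were lower: Fst (-3.61), Inhba (-2.23) and Mstn. Mstn encodes myostatin, a ligand bound by the product of Wfikkn2, and was at 0 in members against 0.00795, 4.76 and 7.08 CPM in others.

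Relatives of the other score genes were counted from the same kind of list, beside 3.72% higher and 8.86% lower over all genes tested. In lists this short 0 or 1 higher is near that share, so nothing is read from the higher counts. Among 11 lipocalins and lipid carriers outside the score, Plin2 was higher (1.12) and 5 were lower, with Fabp4 (-3.79), Lpl (-3.73) and Rbp4 (-3.69) at the far end. Among 13 protocadherins and cadherins, Pcdh9 was higher (1.92 ± 0.12 SE) and 3 were lower (Pcdh19, Cdh13 and Pcdh7). Among 12 nuclear receptors, Rarb, a retinoic acid receptor, was higher (1.52) and Rorb and Rora were lower. Among 14 cytochrome oxidase and hypoxia genes 0 were higher and 3 lower (Higd1b, whose sign turned with DESeq2, Ndufa4l2 and Egln3), and the main isoform Cox4i1 stood at means of 849 CPM in members and 859 CPM in others. Among 7 carboxypeptidases 0 were higher, and Cpz and Cpxm2 were lower.

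Markers of other cell types were measured beside these results. Endothelial markers were lower in members for 7 of 8 genes and summed to 15.5, 3.08 and 5.19 CPM in members against 82.0, 15.7 and 19.6 CPM, with Egfl7 most abundant and Tie1 at 0 in members. Epithelial markers were lower for 10 of 10 and summed to 236, 149.8 and 55.6 CPM in members against 844, 722 and 218 CPM, with Krt14 most abundant. Immune and erythroid markers were lower for 6 of 10 and summed to 261, 52.1 and 36.3 CPM against 3581, 2103 and 100.1 CPM, with Hbb-bs most abundant. Cells that were not members thus held more of these markers, and their part in the genes lower in members was not tested gene by gene. With cells holding at least 2 UMIs of other cell types left out, 429 genes were higher and 849 lower, and 8 of the endothelial, epithelial and retinoid genes counted as lower turned their sign. At P15, P25 and 8 weeks this setting left out 64.9%, 43.4% and 12.8% of members. It left out 72.1%, 54.8% and 14.4% of other kept cells. The top 5% was then taken anew from the remaining cells, so the set differs from the members described here.

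Glial and nerve sheath cells use Sox9 and contactins too, so their markers were counted as well. Of the Schwann and glial markers tested 0 were higher, Lgi4 was lower, and the list's sums were 65.3, 59.3 and 90.5 CPM in members against 83.9, 47.3 and 42.1 CPM, with S100b most abundant. Sox10, the defining glial factor, stood at 0.167, 0 and 0 CPM in members, and Foxd3 was at 0. Of 10 nerve sheath markers 3 were higher (Sox9, Osr2 and Tenm2) and 3 were lower (Lypd2, Moxd1 and Itgb4), with sums of 900.4, 1655 and 1724 CPM against 374, 414 and 581 CPM, of which Osr2 was the most abundant. Slc2a1 and Cldn1, which mark perineurial cells, did not pass at log2 fold changes of 0.39 and 0.48. Of 4 tested melanocyte markers Pmel was higher at 1.67, 2.82 and 2.23 CPM, the other 3 were not called, and 4 untested ones were at 0 in members. The list had a median log2 fold change of -0.91 and summed to 21.2, 17.4 and 21.5 CPM in members against 35.9, 39.4 and 77.4 CPM, with Mitf most abundant. Mural, odontoblast and pulp, and adipocyte and muscle markers had 0 higher and 2, 3 and 1 lower of 9, 8 and 2 tested. Mural markers summed to 343, 229 and 249.97 CPM in members against 564, 241 and 371 CPM in others. Odontoblast and pulp markers (3 lower: Phex, Dmp1 and Dspp) summed to 628, 467 and 409 CPM in members against 254, 346 and 338 CPM, so the sum was higher in members in each library. Its most abundant gene, Smoc2, which encodes a secreted matrix-associated protein, stood at 428, 262 and 151 CPM in members against 83.7, 97.6 and 88.4 CPM and fell short of the test (log2 fold change 1.47 ± 0.34 SE, adjusted p = 0.0537). The part of these markers in the other results was not tested. Adipocyte and muscle markers summed to 4.18, 1.80 and 5.19 CPM against 5.93, 2.59 and 1.32 CPM.

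Cell cycle and handling genes also differed. Of 12 cell cycle genes 0 were higher and 7 were lower, including Birc5 (-2.93), Mki67 (-2.55) and Top2a (-1.67). The list summed to 571, 495 and 401 CPM in members against 965, 709 and 348 CPM, lower in members at P15 and P25 and higher at 8 weeks, with Hmgb2 most abundant. Mki67, a marker of dividing cells, stood at 10.4, 5.13 and 1.48 CPM in members and at 47.2, 33.9 and 15.2 CPM in others. Of 14 genes that respond to tissue dissociation 2 were higher (Ier3 and Hspa1a) and 0 lower, with a median log2 fold change of 0.72. The list summed to 18312 CPM, 36005 CPM and 43691 CPM in members and to 13830, 16602 and 25256 CPM in others, and Fos was its most abundant gene. The sum was higher in members in each library, while Fos (log2 fold change 0.72) and 11 other genes of the list were not called. The part of these genes in the other results was not tested.

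Along the ranking by score, Gpha2, Krt8, Tnn and Wif1 changed over several bands and not only at the boundary. Gpha2 at P15 stood at 928 CPM in the top 2.5% of kept cells, 354 CPM from 2.5% to 5%, 320 CPM from 5% to 10%, 203 CPM from 10% to 20%, 70.2 CPM from 20% to 50% and 20.7 CPM in the lower ranks. At 8 weeks it stood at 1244, 921, 1033, 630, 191 and 38.2 CPM over the same bands. The cells just below the 5% mark thus held Gpha2 at levels near those just above it at P15 and 8 weeks. At P25 Gpha2 stood at 1512 CPM just above the mark and at 1144 CPM just below it. Krt8 at P25 stood at 69.5, 43.1, 18.9, 1.91, 0.0852 and 0.132 CPM, a steeper course. Tnn ran in the opposite direction, at 31.7, 108, 233, 332, 754 and 1163 CPM at P25. Wif1 was highest in the middle ranks, at 3301, 4299, 4851, 5730, 5300 and 3131 CPM at P25. Pthlh at 8 weeks changed mainly at the 5% mark, at 64.3, 64.5, 162.6, 180.9, 185.7 and 166.5 CPM.

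**Figure D4:**
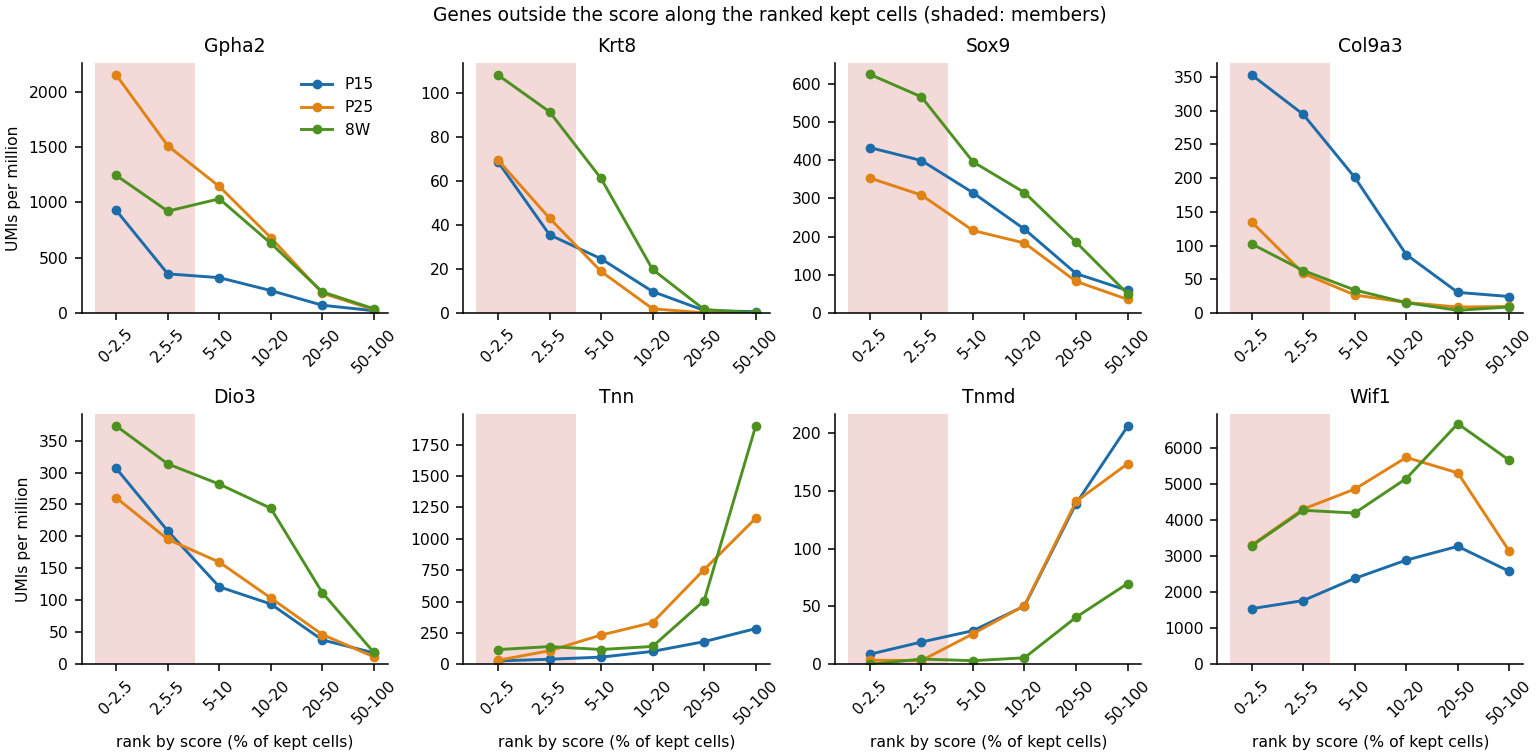
UMIs per 1000000 of genes outside the score over 6 bands of the ranking by score (x axis, % of kept cells), 1 line per library, with the members' bands shaded. Gpha2 and Krt8 fall along the ranks, Tnn rises at P25 and Wif1 peaks between them.

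The 10 genes whose levels across all kept cells followed the score most closely were ranked among 9528 genes with UMIs in at least 5% of kept cells of each library. Pcp4 led with a mean Spearman's rho of 0.58 over the 3 libraries (0.51, 0.61 and 0.62 across 8262, 6077 and 3585 cells). Mfap4, a microfibril protein, followed at 0.56, Il11ra1, the interleukin 11 receptor, at 0.53, Angpt4, an angiopoietin, at 0.53 and Cxcl12, a chemokine of stromal niches, at 0.52. Kctd12 (0.51), Ambn (0.50), Vcan (0.49), Hmgn3 (0.49) and Tnc (0.47) completed the list. These values share library, depth and the many cells at a score of 0. They rank differently from the fold changes: Il11ra1 was not called between members and other kept cells at a log2 fold change of 0.99, and the call of Angpt4 (1.99, adjusted p = 0.0249) was lost without the P25 library.

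Clusters built without the 8 score genes showed where the members lay. At a Leiden resolution of 1 there were 28, 23 and 19 clusters at P15, P25 and 8 weeks, and the cluster with the most members held 310 of 413 (75.1%), 246 of 304 (80.9%) and 144 of 179 (80.4%). At a resolution of 2 the P15 members were split, with 41.6% in the first cluster and 38.3% in the next. At a resolution of 1 the first cluster had 498, 516 and 517 cells in the 3 libraries, of which 62.2%, 47.7% and 27.9% were members. Members were thus close to each other in the rest of the transcriptome, and the clusters were wider than the set. Of the 20 nearest neighbours of a member, on average 56.5%, 59.8% and 36.6% were members, beside 2.07%, 2.10% and 3.28% for other cells. The leading genes of that cluster were Cntn6, Gldn and Col9a3 at P15, Ambn, Gpha2 and Osr2 at P25, and S100a1, Trf and Chil1 at 8 weeks. Krt8, Gpha2 and Vcan were among its 10 leading genes in each library. These genes describe the clusters, with no test.

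**Figure D5:**
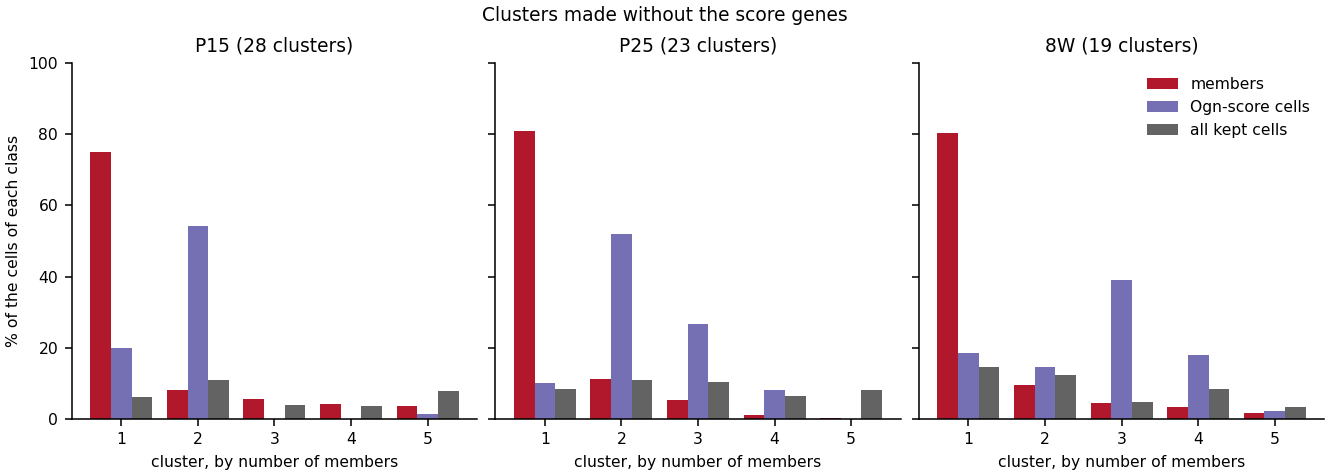
Share (%) of members, Ogn-score cells and all kept cells in clusters made without the score genes, in the 3 libraries. The 5 clusters with the most members are shown, ordered by their number of members. The first cluster held 75.1%, 80.9% and 80.4% of members, and Ogn-score cells lay mostly in other clusters.

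A second comparison set members against cells of the same pools chosen by another score. Ogn-score cells were the top 5% of kept cells of each library by the same kind of score over Ogn, Angpt4, Igfbp3 and Sfrp2, all of which encode secreted proteins. The sets shared 99, 34 and 23 cells, or 24.0%, 11.2% and 12.8% of each, and shared cells were left out, so levels of members differ here from those above. Of 11557 genes tested with edgeR, 216 were higher in members (1.87%) and 301 were lower (2.6%). Both comparisons use the same member cells, so their results are not independent of each other. Since both sets were cut by scores, the 12 score genes have no test. State lists also differed: dissociation genes summed to 17796, 36952 and 43734 CPM in members against 14194, 20673 and 33511 CPM, with 0 of 14 called, and cell cycle genes to 663, 520 and 404 CPM against 329, 270 and 224 CPM, with Stmn1 higher and 11 not called. Mural markers summed to 313, 225 and 242 CPM against 706, 345 and 703 CPM. The part of these lists in the results was not tested.

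Krt8, 2 of 3 collagen IX genes, Vcan, Bmp2 and Sox9 were higher in members. Krt8 stood at 55.8, 58.9 and 109.8 CPM in members and at 5.08, 2.93 and 6.72 CPM in Ogn-score cells (log2 fold change 3.81 ± 0.20 SE, adjusted p = 1.50e-06). Col9a3 stood at 372, 112.5 and 88.4 CPM against 10.7, 10.0 and 0.672 CPM (4.44 ± 0.49 SE, adjusted p = 0.0183), and its call was lost without the filter on low counts and without cells holding UMIs of other types. Col9a1 was higher as well (1.37 ± 0.26 SE, adjusted p = 0.0303). Col9a2, the third collagen IX chain, was not called and stood at 484, 203 and 189 CPM against 253, 278 and 155 CPM (0.21 ± 0.29 SE, adjusted p = 0.766), below the Ogn-score cells at P25. Col11a2, a collagen XI chain that was lower in members against all other kept cells, was higher here at 9.33, 14.8 and 6.86 CPM against 2.82, 4.81 and 3.36 CPM (1.497 ± 0.297 SE, adjusted p = 0.00889). Vcan stood at 2302, 689 and 949 CPM against 306, 140.6 and 186.7 CPM (2.47 ± 0.15 SE, adjusted p = 4.86e-06). Bmp2 stood at 320, 342 and 334 CPM against 40.9, 65.5 and 84.0 CPM (2.41 ± 0.17 SE, adjusted p = 4.61e-05). Sox9 stood at 462, 357 and 622 CPM against 123.3, 182 and 274 CPM (1.30 ± 0.18 SE, adjusted p = 0.00255), and Sox5 was higher too (1.12). Of the genes in this paragraph, those called higher were higher in each of the 3 libraries.

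Gpha2 did not separate them. It stood at 432, 1951 and 867 CPM in members and at 446, 718 and 457 CPM in Ogn-score cells, with a log2 fold change of 0.73 ± 0.32 (SE; adjusted p = 0.295). Members were higher at P25 and 8 weeks and about level at P15, and without P15 the gene passed at 1.15. Dio3 stood at 174, 211 and 336 CPM against 237.5, 217.5 and 261 CPM (-0.11, adjusted p = 0.768). Matn4 stood at 1188, 688 and 705 CPM against 508, 549.7 and 427 CPM (0.71, adjusted p = 0.0321, short of the fold required). Gpha2, Dio3 and Matn4 were thus high in both sets beside the level of all other kept cells given above, and a p that misses the threshold does not show that the sets are alike.

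Other genes higher in members were Coch, which encodes the matrix protein cochlin (3.77), Sparcl1, an anti-adhesive matrix protein (2.59), and Stmn1, a microtubule regulator (2.37). Ifitm1, an interferon-induced membrane protein, was higher by 2.26, and the adhesion genes Hepacam, Pcdh9 and Ntng1 by 2.21, 2.13 and 2.04. The cation channel Trpc5 (2.17), Neto1 (2.16), the bicarbonate transporter Slc4a4 (2.08) and Lurap1l (2.01) completed the 15. With members and Ogn-score cells taken as the top 10% of cells, 7 of these 15 (Coch, Sparcl1, Hepacam, Trpc5, Neto1, Pcdh9 and Lurap1l) lost the call.

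Among genes lower in members, Mmp13, a collagenase, stood at 21.5, 28.7 and 30.03 CPM in members and at 1089, 1107 and 793 CPM in Ogn-score cells (-5.34 ± 0.20 SE, adjusted p = 6.27e-07). Acta2, which encodes smooth muscle actin, stood at 56.6, 19.7 and 20.6 CPM against 480.4, 145.0 and 382 CPM (-3.33 ± 0.21 SE, adjusted p = 9.08e-05), and Tagln, a smooth muscle actin-binding protein, was lower by a log2 fold change of -3.66. Of the 7 mural markers tested, Acta2 was lower and 6 were not called. Thbs4, a thrombospondin of tendon, stood at 78.6, 86.1 and 224 CPM against 560 CPM, 840 CPM and 2520 CPM (-3.25 ± 0.15 SE, adjusted p = 6.27e-07). Itgbl1 (-3.95), Pmch (-3.81), Entpd3 (-3.54), Dpep1 (-3.15), Cpz (-3.12) and Thsd4 (-2.62) were the remaining genes of the 10, and the call of Pmch was lost with the top 10% of cells. All 10 were lower in 3 of 3 libraries, as the rule for naming them required.

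The ligament list was split between both sets. Of 15 tested, Lum and Dcn, which encode small proteoglycans of collagen fibrils, were higher in members and Thbs4, Tnmd and Tnn were lower, with a median log2 fold change of -0.53 beside -0.01 over all genes tested. Lum stood at 1619, 524 and 1120 CPM in members against 410 CPM, 141 CPM and 400.4 CPM in Ogn-score cells (1.74 ± 0.13 SE, adjusted p = 1.77e-05). Tnmd stood at 15.6, 4.06 and 2.57 CPM against 43.5, 36.4 and 23.5 CPM (-2.24 ± 0.34 SE, adjusted p = 0.00962), and its call was lost without the 8-week library. Of 15 markers of the same 2 cementoblast precursor clusters, which the study drew from these libraries, 4 were higher (Vcan, Bambi, Ptn and Id1) and Igfbp4 was lower, while of the third cluster's key markers Thbs4 (-3.25), Alpl (-1.54), Col1a2 (-1.15) and Col1a1 (-1.12) were lower and Rora and Col16a1 were not called. Of 12 mineral genes other than Ibsp 0 were higher and 3 were lower (Phex, Alpl and Col1a1). Their median log2 fold change was 0.345, on the members' side, where it was -2.67 against other kept cells. Of 15 periapical genes 0 were higher and 4 were lower (Itgbl1, Tnn, Nrp1 and Htra1). Of 17 BMP genes Bmp2 and Bmp6 were higher and Bmper, Grem1 and Bmp3 were lower. Of 16 Wnt ligands, R-spondins and response genes tested, 0 were higher and 1 was lower (Wnt11). Their median log2 fold change was 0.25, where it was -1.51 against other kept cells. Of 7 Wnt antagonists tested 0 were called, beside 1.87% higher and 2.6% lower over all genes tested. Rspo3, Wnt10b, Lgr5, Dkk2 and Notum, lower in the first comparison, were too low to be tested here. The mCherry transcript stood at 131.7, 330 and 258 CPM in members and at 147.3, 235 and 257 CPM in Ogn-score cells and was not called (log2 fold change 0.07).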

How the data were processed

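The authors deposited UMI counts per gene and cell for each library as filtered matrices, made with Cell Ranger on mm10, the version being 6.1.2 in the labels and, in the file headers, 6.1.2 for P15 and 8 weeks and 6.0.1 for P25. Libraries were made with a 10x 3' kit and counts were used as deposited. The tests used only the 21446 genes that all 3 files list under the same identifier, and CPM is per 1000000 UMIs of these except as follows. Levels in the bands of the ranking, in the random split of UMIs and in the summed globin genes are per 1000000 UMIs of all genes in the library's file. The UMIs of the P25 members were 4143041 over all genes and 3897726 over the shared ones. Scores, depths and clusters also used all genes of each file, the clusters without the score genes. No doublet removal is stated in the sources used here, so doublet scores from scanpy (1.11.5) were computed and cells above them were left out as an alternative.

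The members, the gene lists and the tests were chosen with earlier results of these data known. UMIs were summed per library and class and tested with edgeR (4.0.16, R 4.3.3): TMM scaling, the default filter on low counts, robust quasi-likelihood fits, the library as a block, and Benjamini-Hochberg adjustment over all genes tested. The block follows from the design, since both sums of a library come from the same sorted pool. Intervals of CPM are exact Poisson and those of shares Clopper-Pearson, both at 95% and for counting error only, and the limit for a share of 0 is 3 cells of the total. Each age is 1 library, so no test was made between ages.

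Besides the score genes, the genes named were the 15 furthest toward and the 10 furthest away from the members among those called, with a mean of 50 CPM or more where they were higher and an unchanged sign over the 3 libraries. Mitochondrial, ribosomal and unnamed genes were left out, up to 4 genes a list were taken by fold change, and Gpha2 was always named. Defining markers of a list given beyond these (such as Postn, Scx, Acan, Runx2 and Sox10) were named after their values were seen. Clusters used 2000 variable genes without the score genes, 30 principal components, 20 neighbours and Leiden (0.10.2). Alternatives were DESeq2 (1.42.0), other scaling, no filter, no block, thinning, other scores and set sizes, and leaving out libraries, doublets or cells with UMIs of other types. Scripts were tested on simulated data. Values of some listed genes are not reported here.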

Additional observations from a re-analysis of the deposited data

Results flagged for a closer look

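Of the genes named or listed, 3 pointed in opposite directions in different libraries by at least 0.5 on the log2 scale of members over other kept cells, at 50 CPM or more in at least 1 class of each library and with counting intervals that leave out 0, and the difference between libraries was not tested because each age has 1 library. Hmgb2, a chromatin protein of dividing cells, stood at a log2 ratio of -0.84 at P15 and 0.62 at 8 weeks. Ebf1, a transcription factor of stromal cells, stood at -0.54 at P15 and 0.56 at P25. Tnfrsf11b, which encodes the osteoclast inhibitor osteoprotegerin, stood at -1.21 at P15, 0.51 at P25 and 1.05 at 8 weeks.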

How the results depend on the processing

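Against the other kept cells, the counts of 506 higher and 1207 lower genes moved by over 1.5 times in 3 settings. They were 332 higher and 746 lower with each cell thinned to 3000 UMIs, 161 and 346 without the library as a block, and 332 higher without the P25 library. Leaving out a library gave 332 to 561 higher and 818 to 1181 lower. Against Ogn-score cells, 216 higher and 301 lower genes became 140 and 166 when thinned, 29 and 54 without the block (the pairing by library), 200 lower with DESeq2 and 181 lower without the P25 library. Leaving out a library gave 149 to 211 higher and 181 to 298 lower.

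Of the 25 genes named in the first comparison, 6 lost the call in at least 1 setting other than the missing block (Cntn6, Cxcl5, Hbb-bs, Lgals3, S100a1 and Tnmd), and 9 lost it without the block. Of 26 in the second, 9 lost the call (Coch, Col9a3, Hepacam, Lurap1l, Neto1, Pcdh9, Pmch, Sparcl1 and Trpc5), 11 lost it without the block, and Gpha2 gained one without P15, at 1.15. Over 194 genes followed in the first comparison, 2502 of 2869 values kept direction and call, 357 kept direction only and 10 reversed. For 76 genes in the second, 926 of 1082 kept both and 0 reversed. The reversed log2 fold changes were Higd1b at 0.38 with DESeq2, Lgi4 at 0.44 with a score over 5 genes and, without cells holding UMIs of other types, Cyp26a1 at 0.78, Dsp at 0.41, Egfl7 at 0.28, Kdr at 0.19, Krt14 at 0.31, Krt15 at 0.56, Krt17 at 0.20 and Trp63 at 0.24. The last setting removes, by its construction, cells that hold the markers among these genes. The cause of the reversal of Cyp26a1, which is no such marker, and of the other changes was not tested.

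The share of members in their leading cluster was 81.8% at P15 and 97.2% at 8 weeks at a Leiden resolution of 0.5, and 41.6%, 63.8% and 72.1% at P15, P25 and 8 weeks at 2. At 0.5 the 8-week cluster was wide: it held 1301 cells, 36.3% of those kept, of which 13.4% were members, and 74.9% of Ogn-score cells, so members and Ogn-score cells lay in 1 cluster there. Depth limits genes at a few CPM, most at 8 weeks, where the members sum to 1348150 UMIs.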

Other observations

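Retinoid genes were split between members and other kept cells. Of 13 tested, 4 were higher in members (Dhrs3, Aldh1a3, Rarb and Rdh10) and 5 were lower (Aldh1a2, Cyp26b1, Rbp4, Cyp26a1 and Crabp2), of which Cyp26a1 turned to 0.78 without cells holding UMIs of other types. Aldh1a3, an enzyme that makes retinoic acid, stood at 142, 299 and 323 CPM in members of P15, P25 and 8 weeks and at 42.1, 57.9 and 77.1 CPM in others (log2 fold change 1.99 ± 0.12 SE, adjusted p = 1.24e-05, edgeR). Aldh1a2, another such enzyme, stood at 0.501, 2.05 and 0.742 CPM in members and at 15.8, 33.4 and 15.2 CPM in others (-4.46). Aldh1a1, the third of them, stood at or below 2.23 CPM in both classes and was not called. Cyp26b1, which degrades retinoic acid, was lower as well (-4.36). Aldh1a3 was thus higher and Aldh1a2 lower in members than in other kept cells in each of the 3 libraries. Against Ogn-score cells, of 12 tested retinoid genes Stra6 and Dhrs3 were higher and Rbp4 and Cyp26b1 were lower. Neither Aldh1a3 nor Aldh1a2 was called there.

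Chemokine, FGF, IGF, axon guidance and proteoglycan lists gave further counts, beside 3.72% higher and 8.86% lower over all genes tested. In lists this short 0 or 1 higher is near that share, so nothing is read from such counts. Of 14 chemokines and cytokines, Cxcl12 was higher in members (1.54) and 9 were lower, among them Cxcl14 (-4.24), Ccl2 (-3.66) and Tnfsf11, which encodes RANKL (-3.00). Of 15 FGF genes 0 were higher and 8 were lower, led by Etv4 (-3.63), a response gene. Of 12 IGF genes, Igfbp3, which carries IGFs, was higher at 1451, 5193 and 3714 CPM against 448, 1198 and 1298 CPM (1.70), and Pappa2 and Igfbp2 were lower. Of 18 axon guidance and nerve growth genes, Ntf3 (2.05) and Ntng1 (1.58) were higher and 5 were lower. Of 13 small leucine-rich proteoglycans 0 were higher and 3 were lower (Podnl1, Podn and Dcn). Against Ogn-score cells, 0 of 12 tested FGF genes were called, with a median log2 fold change of 0.10. Of 10 chemokines and cytokines tested there, 1 was higher and 2 were lower (Tnfsf11 and Cxcl14). Ntng1 and Ntf3 were higher there too, and 4 of 16 axon guidance genes were lower. Igfbp3, a gene of the Ogn score, had means of 3081 CPM in members and 4313 CPM in Ogn-score cells.

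Cells that the filters had left out were scored too, beside the 5% of kept cells that reach the members' score by rule. Among those with a Ptprc UMI, 8 of 1123, 3 of 290 and 0 of 29 did, the last allowing at most 3 cells. Among those with an Epcam UMI, 24 of 1102, 10 of 789 and 4 of 97 did (4.12% at 8 weeks, with an interval of 1.13% to 10.2% that holds the 5%), and among those with at least 1% Ibsp UMIs, 1 of 1048, 2 of 1215 and 0 of 884 did.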
